A study of Mus musculus with 23 samples.

Results

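The maternal allele output was compared between M-Z- and M+Z+ mouse embryos, with 7 M-Z- embryos (4 female, 3 male) and 10 M+Z+ embryos (6 female, 4 male) taken from the 23 embryos of the series. Whole embryos were collected at E13.5 from 129 females crossed with males carrying 1 mutant copy of Zfp57 on a mainly DBA/2J background (DBA*). The M-Z- embryos lacked Zfp57 both in the oocyte and in the zygote (Zfp57-/-, from Zfp57-/- mothers), and the M+Z+ embryos had oocyte Zfp57. The study's text gives Zfp57+/- mothers for the M+Z+ embryos of its bisulfite sequencing, which were a different set. The labels write the M+Z+ embryos used here as Zfp57-/+ and the study's text mostly as Zfp57+/-, and whether all 10 shared 1 zygotic genotype was not resolved. The 6 M-Z+ embryos lacked Zfp57 in the oocyte and received a functional paternal copy, and are shown beside the main comparison only. RNA came from the whole embryo, so each value averages over all tissues. In such bulk RNA, fewer cells of a type and less RNA per cell cannot be told apart.

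Imprinted genes are expressed from 1 parental copy, which is set by DNA methylation that 1 germline places at an imprinting control region (ICR). ZFP57 is a KRAB zinc finger protein that binds a methylated hexamer within ICRs and keeps their methylation when the rest of the genome is reprogrammed in the early embryo. At most ICRs the methylated copy is the maternal one, so the genes kept silent on the maternal chromosome are those that a loss of this methylation can release.

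For each gene, the reads that covered a 129/DBA variant and carried the 129 base were the maternal reads. The tables held 26183 gene symbols, and the 6110 autosomal genes outside chromosome 17 with a mean of at least 20 allele reads per embryo were tested. Maternal levels are given as maternal CPM, the maternal reads of a gene per 1e+06 allele reads of the embryo, where allele reads are the maternal plus the paternal reads of all genes. Calls needed an adjusted p below 0.05 and a log2 fold change of 0.5 or more in either direction in edgeR's quasi-likelihood test, with the female or male table as covariate and Benjamini-Hochberg adjustment over the 6110 genes. Every adjusted p below is from that test, and every fold change is M-Z- over M+Z+ on the log2 scale unless stated.

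The depth was 2460255 to 3224132 allele reads in M-Z- and 2709837 to 3944998 in M+Z+ embryos. Total Zfp57 RNA was 25.5 to 35.3 reads per 1e+06 gene reads in M-Z- embryos and 52.7 to 99.1 in M+Z+ embryos, with no overlap. The male M-Z- replicate 2 stood apart in hypoxia and embryonic globin genes, and the M+Z+ embryos fell into 2 sets by header order (6 and 4 embryos) that differed in 72 genes (1.18% of those tested), none of them in the imprinted list. Values without these embryos stand beside the results that they changed or in the section on the processing. Chromosome 17, which carries Zfp57, was left out. There, 68 to 126 genes of each M-Z- embryo and 71 to 72 genes of 4 female M+Z+ embryos had over 95% maternal reads, against 0 in the other 6 M+Z+ embryos. Male M-Z+ replicate 1, with a functional paternal copy of Zfp57, had 45 such genes. The M+Z+ embryos thus differed in the alleles read on chromosome 17, and which zygotic Zfp57 copies each carried was not tested.

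Maternal output was called different for 77 genes, 1.26% of the 6110 tested. It was higher in M-Z- embryos for 44 genes (0.72%) and lower for 33 (0.54%), a split that TMM scaling turned to 34 higher and 39 lower of 73 and scaling by total maternal reads to 61 higher and 34 lower of 95. Against the first M+Z+ set alone 191 genes were called, and against the second alone 25. A list of 100 imprinted genes, chosen with earlier results of these data known, had 39 tested members, of which 15 rose, 3 fell and 21 did not pass. By comparison, 59 of the 6071 tested genes outside the list were called. The 15 that rose were all among the 23 tested genes known to be expressed from the paternal copy, and the 3 that fell were among the 15 known to be expressed from the maternal copy. The median log2 fold change was 2.90 over the paternally expressed members and -0.17 over the maternally expressed members, beside 0.036 over all tested genes. Of the 18 called list members, 16 also had a different change on the maternal than on the paternal copy (allele by genotype interaction, called in 0.638% of the tested genes), the exceptions being Nnat and Kcnk9.

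**Figure D1:**
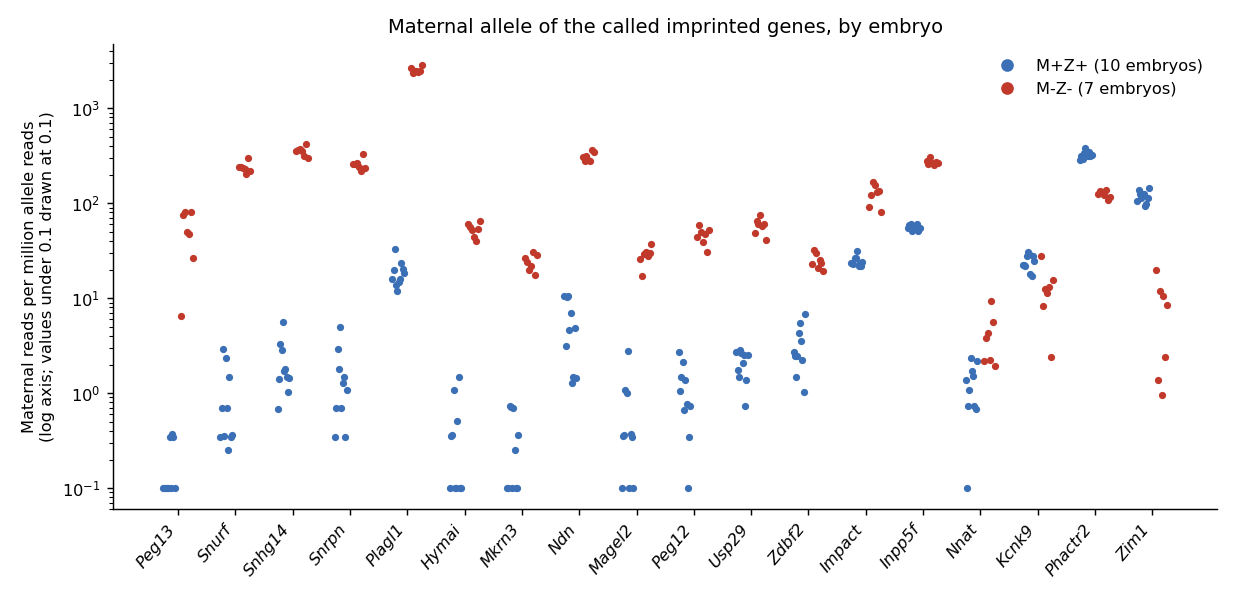
Maternal CPM (log axis, with values under 0.1 drawn at 0.1) of the 18 called imprinted genes in each of 10 M+Z+ embryos (blue) and 7 M-Z- embryos (red), ordered by log2 fold change. The 2 groups do not touch for 16 genes, and they overlap for Nnat and Kcnk9. Over all 6110 tested genes, 51 (0.835%) had no overlap in either table.

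Plagl1 (also Zac1), which encodes a zinc finger transcription factor, had the lowest adjusted p of the gains. Its gene lies on chromosome 10, plus strand, 12810638 to 12851501 (mm9, as for every coordinate here), and Hymai, a non-coding RNA, starts within it. The 250 bases before the annotated starts of 4 genes that the results turn on are printed here to show the sequence beside which these changes were measured, read 5′ to 3′ on the gene's own strand from the mm9 genome. Capitals mark TGCCGC, the hexamer that ZFP57 binds when methylated, or its reverse complement GCGGCA. The hexamer occurred on either strand in the same window of 14.8% of the tested genes, and in that of 3 of the 15 imprinted genes that rose (Plagl1, Hymai and Zdbf2, the first 2 sharing 1 copy). It occurred in the window of 2 of the 3 list genes that fell (Kcnk9 and Zim1), and in that of 1 of the 29 genes outside the list that rose and 1 of the 30 that fell. A match describes letters only. The windows were set by gene starts, and an ICR can reach beyond a window or lie elsewhere. By the study's coordinates the Peg13 window lies within the Peg13 ICR and the Kcnk9 window outside it. Whether the hexamers before Zim1 and the other genes lie in an ICR was not examined.

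Plagl1 (chr10:12810388-12810637, plus strand): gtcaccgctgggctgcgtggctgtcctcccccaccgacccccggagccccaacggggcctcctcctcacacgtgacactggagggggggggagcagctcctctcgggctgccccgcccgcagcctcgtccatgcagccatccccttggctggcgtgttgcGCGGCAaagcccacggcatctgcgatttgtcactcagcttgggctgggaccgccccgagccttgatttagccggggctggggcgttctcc
Snurf (chr7:67150086-67150335, minus strand): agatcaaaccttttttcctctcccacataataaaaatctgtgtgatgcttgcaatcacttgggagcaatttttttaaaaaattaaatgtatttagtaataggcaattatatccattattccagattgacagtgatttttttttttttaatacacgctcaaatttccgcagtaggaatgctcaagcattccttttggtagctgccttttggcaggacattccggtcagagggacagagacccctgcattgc
Peg13 (chr15:72640755-72641004, minus strand): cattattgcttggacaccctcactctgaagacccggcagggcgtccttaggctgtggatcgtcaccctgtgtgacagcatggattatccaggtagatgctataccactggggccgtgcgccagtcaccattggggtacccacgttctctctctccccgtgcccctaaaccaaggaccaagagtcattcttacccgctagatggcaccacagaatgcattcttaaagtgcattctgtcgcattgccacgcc
Zim1 (chr7:6649144-6649393, minus strand): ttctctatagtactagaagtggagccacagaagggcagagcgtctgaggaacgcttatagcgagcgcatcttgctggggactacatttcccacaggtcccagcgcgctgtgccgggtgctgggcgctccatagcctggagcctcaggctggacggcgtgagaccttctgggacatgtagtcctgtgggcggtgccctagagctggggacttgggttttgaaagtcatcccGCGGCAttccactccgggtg

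The hexamer lay 90 bases before the start of Plagl1 and 20 bases before that of Zim1. The windows before Snurf and Peg13 held none.

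Maternal Plagl1 was 11.9, 17.3 and 33.0 CPM at the lowest, the median and the highest of the M+Z+ embryos, and 2340, 2460 and 2844 CPM in M-Z- embryos. Every M-Z- embryo thus lay far above every M+Z+ embryo. The log2 fold change was 7.07 ± 0.12 (SE, adjusted p = 2.92e-25), with 7.09 in females and 7.05 in males. The paternal allele moved by 0.021 (adjusted p = 0.925), and the maternal share of Plagl1 reads went from a median of 0.872% to 54.3%. In M-Z- embryos the mean maternal level was 121% of the mean paternal level. Hymai rose in parallel on the maternal allele, from a highest value of 1.48 CPM in M+Z+ to at least 39.8 CPM in M-Z- embryos (7.0 ± 0.27, adjusted p = 2.25e-17), and its reads overlap those of Plagl1. Neither gene was called on the maternal allele of M-Z+ embryos (-0.13 ± 0.22 for Plagl1, -0.22 ± 0.92 for Hymai).

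In the Snrpn domain on chromosome 7, where the paternal copy produces the bicistronic Snurf-Snrpn RNA, the long non-coding host Snhg14 and several intronless protein genes, 7 list members rose on the maternal allele. Maternal Snurf had 0.253, 0.527 and 2.93 CPM in M+Z+ embryos (lowest, median, highest) and 202, 236 and 299 CPM in M-Z- embryos. Its log2 fold change was 7.90 ± 0.18 (adjusted p = 1.15e-22), and the maternal share of its reads reached a median of 52.4% in M-Z- embryos. Snrpn, a component of the spliceosome, rose by 7.33 ± 0.18 and Snhg14 by 7.35 ± 0.15, and these 3 genes overlap on 1 strand and may share reads. The next members lie apart from them. Ndn, which encodes the growth suppressor necdin, went from 1.27, 4.73 and 10.7 CPM to 277, 305 and 367 CPM (5.85 ± 0.20, adjusted p = 1.71e-18). Its maternal level in M-Z- embryos was 105% of its paternal level. Magel2, a ubiquitin ligase regulator, rose by 5.43 ± 0.32, Mkrn3, a ring finger protein that delays puberty, by 6.26 ± 0.31, and Peg12 by 5.32 ± 0.22. None of these 7 genes was called on the paternal allele, whose changes lay between -0.047 for Magel2 and Snurf and 0.24 for Peg12.

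The same domain held the 3 largest gains outside the list among genes whose groups did not overlap. They were the non-coding RNAs A330076H08Rik (6.43 ± 0.29, adjusted p = 1.25e-15), A230057D06Rik (6.29 ± 0.26) and A230006K03Rik. Maternal A230057D06Rik was at most 1.05 CPM in M+Z+ embryos and at least 31.4 CPM in M-Z- embryos. A230006K03Rik had no maternal read in any M+Z+ embryo and 96 reads over the M-Z- embryos, so its pooled maternal level was at least 49.0-fold higher, taking 3 reads over the M+Z+ group as the limit that a count of 0 allows. Such limits cover counting error only. A230006K03Rik had a mean under 20 allele reads in M+Z+ embryos alone and passed the filter through the other embryos. Its own gain thus helped it into the tested genes.

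The maternal allele of the Snrpn domain also rose in M-Z+ embryos. Maternal Snurf was 83.7, 131 and 237 CPM (lowest, median, highest of 6) and maternal Ndn 98.7, 191 and 264 CPM, all above the M+Z+ embryos. In that comparison, which shares the M+Z+ embryos with the main one and called 22 genes (0.36%), the members Snurf, Snrpn, Snhg14, Ndn, Magel2 and Mkrn3 rose by 5.07 to 7.14, and Peg12 by 4.32. Snurf stood at 7.14 in M-Z+ and at 7.90 in M-Z- embryos. Whether M-Z+ and M-Z- embryos differed was not tested.

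Peg13, a non-coding RNA in an intron of Trappc9 on chromosome 15 (72636032 to 72640754), had 3 maternal reads over all 10 M+Z+ embryos and 986 over the 7 M-Z- embryos. The pooled level was 503-fold higher with a 95% counting interval of 172 to 2442. In contrast to Plagl1, the M-Z- embryos were spread out. Female replicate 1 had 6.51 CPM, male replicate 3 had 26.3 CPM, and the other 5 had 48.0 to 80.7 CPM. Kcnk9, a potassium channel gene next to Peg13 that is expressed from the maternal copy, fell from 16.98, 23.4 and 30.5 CPM to 2.43, 12.4 and 27.6 CPM (-0.88 ± 0.23, adjusted p = 0.0327). The M-Z- embryo with the highest maternal Kcnk9 (female replicate 1, 27.6 CPM) was the one with the lowest Peg13, and the one with the lowest Kcnk9 (male replicate 2, 2.43 CPM) had 80.4 CPM of Peg13. The embryo with the highest Peg13 (female replicate 3, 80.7 CPM) had the median Kcnk9 (12.4 CPM). The Kcnk9 groups overlapped, and its call was lost against either M+Z+ set alone (-1.04 against the second, adjusted p = 0.256) and without female M-Z- replicate 2, 3 or 4, male M+Z+ replicate 3 or 1 of the female M+Z+ embryos with a repeated header name (-0.86 to -0.77, adjusted p = 0.0527 to 0.0867). Trappc9 (0.16, adjusted p = 0.763) and Chrac1 (-0.19, adjusted p = 0.781), the other tested list genes of this region, did not pass. Both are listed as expressed from the maternal copy, but the M+Z+ embryos did not show this bias. Chrac1 had 3.51 to 13.4 maternal and 9.52 to 19.9 paternal CPM there, and Trappc9 5.54 to 13.2 and 5.32 to 10.2 CPM.

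In the Peg3 domain at the proximal end of chromosome 7, a gain and a loss lay side by side. Usp29, a deubiquitinase gene expressed from the paternal copy, rose from 0.738, 2.30 and 2.84 CPM to 41.0, 60.2 and 75.8 CPM (4.77 ± 0.16, adjusted p = 1.11e-18). Zim1, a zinc finger gene expressed from the maternal copy (6628154 to 6649143, minus strand), fell from 93.0, 119 and 145 CPM to 0.968, 8.52 and 19.9 CPM. This was the largest loss in the imprinted list, at -3.87 ± 0.27 (adjusted p = 2.68e-11), and no M-Z- embryo came near the M+Z+ range. The mean maternal level of Zim1 was 14.9 times lower in M-Z- embryos. In M-Z+ embryos Zim1 stayed at 112 to 150 CPM.

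Inpp5f, an inositol phosphatase gene whose shorter transcript comes from the paternal copy, rose from 50.6, 55.3 and 60.9 CPM to 253, 267 and 303 CPM. Its change of 2.28 ± 0.057 (adjusted p = 7.70e-22) had the smallest error among the called list genes, and its maternal level in M-Z- embryos was 124% of the paternal level. The M-Z+ embryos lay at 58.5 to 64.9 CPM (0.15, adjusted p = 0.40). Impact, a translation regulator on chromosome 18, rose by 2.36 ± 0.11 (adjusted p = 5.48e-15), from 21.7, 23.6 and 31.1 CPM to 81.3, 132 and 167 CPM. Its maternal share went from a median of 12.4% to 40.8%. Zdbf2, a gene of chromosome 1 expressed from the paternal copy, rose from 1.03, 2.61 and 6.89 CPM to 19.4, 23.4 and 32.4 CPM (2.90 ± 0.22, adjusted p = 1.62e-10). Both were also called in M-Z+ embryos, at 0.90 for Impact and 1.61 for Zdbf2, but those embryos were uneven and overlapped with M+Z+ embryos. Maternal Impact reads, not scaled for depth, were 237 and 151 in male M-Z+ replicates 2 and 3 and 128 in female replicate 3. The other M-Z+ embryos had 69 to 87, against 63 to 90 in M+Z+ embryos. Maternal Zdbf2 reads were 12 to 36 in M-Z+ and 3 to 19 in M+Z+ embryos.

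Nnat, a small membrane protein gene of the brain and endocrine cells, was the weakest of the gains. In M+Z+ embryos alone Nnat had a mean under 20 allele reads, so it passed the filter, and entered the list's gains, through the other embryos. It had 0, 1.22 and 2.32 maternal CPM in M+Z+ and 1.94, 3.80 and 9.35 CPM in M-Z- embryos, which overlap. The maternal allele rose by 1.67 ± 0.38 (adjusted p = 0.0162) and the paternal allele by 1.15 (adjusted p = 0.0056), and the difference between the alleles did not pass (adjusted p = 0.932). Its maternal change was 1.001 (adjusted p = 0.656) with the second M+Z+ set alone, and its call was also lost without male M-Z- replicate 1 (1.39, adjusted p = 0.0646).

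Phactr2, a phosphatase and actin regulator gene 76.0 kb beyond the 3′ end of Plagl1 on the other strand, was the third list member that fell. It had 286, 319 and 383 maternal CPM in M+Z+ and 109, 124 and 139 CPM in M-Z- embryos (-1.38 ± 0.068, adjusted p = 5.81e-15). Its paternal allele moved by -0.089 (adjusted p = 0.596). The maternal share of its reads was 71.5% ± 1.11 (SD, n = 10) in M+Z+ and 50.7% ± 1.45 (SD, n = 7) in M-Z- embryos, so its maternal bias in M+Z+ embryos was near equal output in M-Z- embryos. M-Z+ embryos kept 296 to 364 CPM.

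Other genes around Plagl1 that are not in the imprinted list also fell on the maternal allele. Hivep2, a zinc finger transcription factor gene that starts 875 kb downstream, went from 81.1, 96.7 and 118 CPM to 52.1, 63.5 and 71.4 CPM (-0.66 ± 0.082, adjusted p = 4.15e-06). Fuca2, a fucosidase gene, changed by -0.64 ± 0.11 (adjusted p = 0.000849), and Ltv1, a ribosome assembly factor gene named after its values were seen, by -0.53 ± 0.068 (adjusted p = 6.42e-06). None of the 3 overlapped between the groups, and none was called on the paternal allele. Without male M-Z- replicate 2, Ltv1 was at -0.49 (adjusted p = 9.02e-06), just under the required size. The maternal share of Ltv1 went from 58.6% ± 1.45 (n = 10) to 50.8% ± 3.50 (n = 7), that of Hivep2 from 62.1% ± 3.02 to 54.2% ± 5.22, and that of Fuca2 from 53.4% ± 6.002 to 40.6% ± 2.89 (SD).

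The loss differed from the paternal change of the same gene for Fuca2 by -0.75 on the log2 scale (adjusted p = 9.99e-05). For Ltv1 and Hivep2 that difference was -0.46 (adjusted p = 0.000316) and -0.48 (adjusted p = 0.00568), under the required size. Sf3b5, upstream of Plagl1, and Pex3 and Adat2, next to Fuca2, had maternal values of -0.23, -0.25 and -0.24, which did not pass. Their allele differences of -0.42, -0.40 and -0.60 had adjusted p of 0.000121, 0.0134 and 0.0255, and that of Adat2 was past both thresholds. Utrn at 229 kb upstream and Adgrg6 and Vta1 at 1454 and 1615 kb downstream had values of -0.16, 0.054 and 0.070. Aig1, which lies between Fuca2 and Hivep2, was at -0.15 (adjusted p = 0.568), with an allele difference of -0.16 (adjusted p = 0.932). The M-Z+ embryos had values of -0.053 to 0.036 for Ltv1, Phactr2, Fuca2 and Hivep2.

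**Figure D2:**
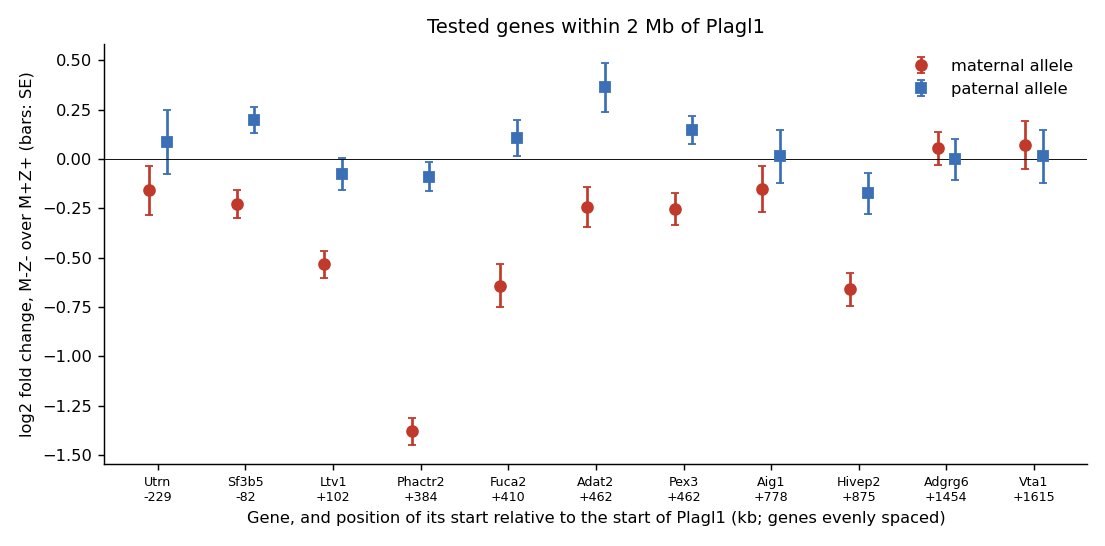
Log2 fold change (M-Z- over M+Z+, bars show the SE) of the maternal (red circles) and paternal (blue squares) allele for the tested genes within 2 Mb of Plagl1, labelled with the distance of each gene's start in kb and spaced evenly. The maternal values of Ltv1, Phactr2, Fuca2 and Hivep2 are between -0.53 and -1.38, while the paternal values of all 11 genes lie between -0.17 and 0.36.

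Near other imprinted regions, 2 non-list genes stood among the largest changes without overlap. Gm30189, an unnamed transcript on chromosome 2 (174146407 to 174152888, minus strand) antisense to Gnas, rose from 0, 0.357 and 1.37 CPM to 1.86, 6.87 and 10.6 CPM (3.88 ± 0.45, adjusted p = 1.47e-06). Without stated strand use in the allele counts, its reads and those of Gnas cannot be told apart. Maternal Gnas was at -0.029 (adjusted p = 0.893). Mkln1, a gene of the muskelin protein at 439.8 kb from Klf14 on chromosome 6, fell from 22.5, 24.8 and 30.2 CPM to 12.8, 16.8 and 21.4 CPM (-0.55 ± 0.11, adjusted p = 0.00508). Its allele difference did not pass (adjusted p = 0.411), and its call was lost without male M-Z- replicate 3 (-0.50, under the required size) and against the second M+Z+ set (-0.51, adjusted p = 0.299). Of the 402 tested non-list genes within 2 Mb of a list gene, 10 were called (2.49%), beside 49 of 5669 elsewhere (0.864%). The distance was chosen after the values were seen, and these shares are a description.

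The 21 tested imprinted genes that did not pass include those of the Dlk1-Dio3 domain. In this domain of chromosome 12, the maternally expressed non-coding RNAs Meg3 and Rian had 1202 to 1770 and 1052 to 1335 maternal CPM in M-Z- embryos, against 1122 to 2046 and 1014 to 1286 in M+Z+ embryos (0.053 and -0.010, adjusted p = 0.870 and 0.968). The paternal allele of the same genes rose by 8.11 and 6.56, and that of Dlk1, a growth factor gene expressed from the paternal copy, fell by 3.25, while maternal Dlk1 was at 0.16 (adjusted p = 0.576). The called changes of these 3 genes were thus on the paternal copy. Ube3a, a ubiquitin ligase gene that neurons express from the maternal copy, was lower in M-Z- embryos (154, 204 and 222 CPM, against 216, 241 and 276 CPM). Its change of -0.34 ± 0.062 had an adjusted p of 0.00181 but was under the required size, and Snhg14, antisense to Ube3a, rose in the same embryos. Cdh15 (0.027), H13 (-0.12), Mcts2 (-0.0045) and the placental imprinted genes Sfmbt2 (-0.039), Gab1 (-0.065) and Smoc1 (-0.024) did not pass either. A further 51 list genes had fewer than 20 allele reads per embryo and were not tested.

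**Figure D3:**
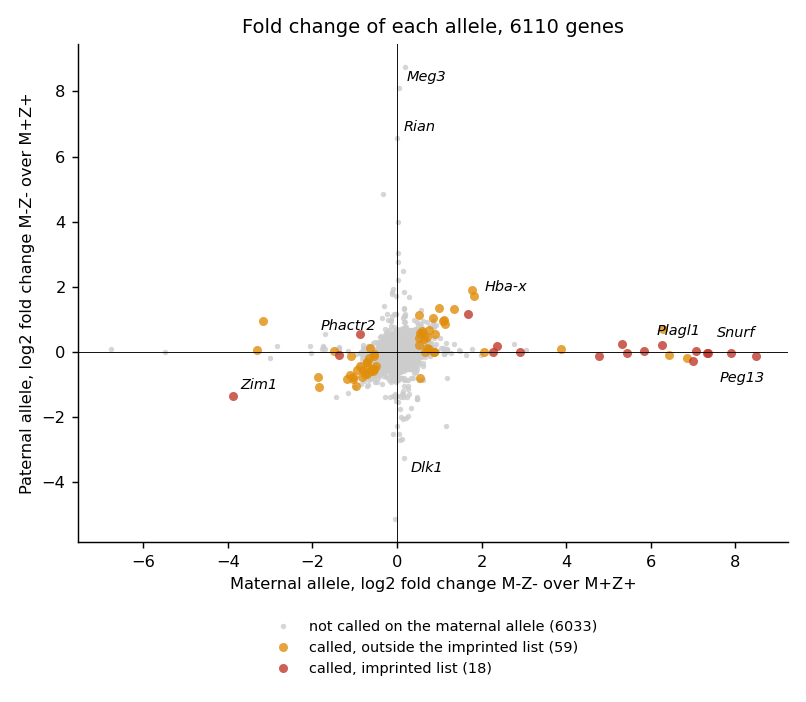
Log2 fold change (M-Z- over M+Z+) of the maternal allele (horizontal axis) against the paternal allele (vertical axis) for 6110 genes: grey, not called on the maternal allele; orange, called outside the imprinted list; red, called in the list. Most red points lie on the horizontal axis (maternal change alone), Meg3 and Rian on the vertical axis, and some orange points such as Hba-x near the diagonal.

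Outside the list, 29 genes rose and 30 fell. Of these 59, 20 were called on the paternal allele in the same direction (65 genes, 1.06%, were called there in all). For 10 of the 59, among them the 4 adult beta globin records and Hsd3b6, under 1% of the allele reads were paternal, so their alleles cannot be separated here. Of the other 49, 43 had a paternal value of the same sign. A different change on the maternal and the paternal allele was found for 10 genes. These were the 3 non-coding RNAs of the Snrpn domain, Gm30189, Fuca2 and, named after their values were seen, Cbx3, Mrpl33, Set, Ube2e1 and Zscan22. Whole-gene expression, in which 83 genes (1.36%) were called, moved with the maternal allele in sign for 56 of the 59 genes. It includes the maternal reads, so part of this agreement is built in.

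Among genes of the fetal liver, 3 of 9 tested markers fell on the maternal allele (0.54% of all tested genes did) and all 9 had values below 0 (median -0.64, beside 0.036 over all tested genes). They were Fga (fibrinogen alpha), Trf (transferrin) and Afp (alpha-fetoprotein). Maternal Afp was 1022, 1496 and 2017 CPM in M+Z+ and 571, 942 and 1379 CPM in M-Z- embryos (-0.61 ± 0.14, adjusted p = 0.0190), and its paternal allele changed by -0.59 (adjusted p = 0.0236). Leaving out female M-Z- replicate 3 put maternal Afp at -0.59 (adjusted p = 0.0542), and leaving out male M-Z- replicate 1 put it at -0.55 (adjusted p = 0.0538), neither of them a call. F5 and Hc, which encode coagulation factor V and complement C5, were 2 of the 5 largest losses without overlap within a sex. F5 went from 25.6, 35.1 and 54.0 CPM to 4.85, 15.2 and 27.5 CPM (-1.17 ± 0.21, adjusted p = 0.00173), with -0.82 on the paternal allele (adjusted p = 0.0124). Hc changed by -0.95 ± 0.19 (adjusted p = 0.00414), with -0.55 (adjusted p = 0.200) on the paternal allele. Named after their values were seen, Serpinc1 (antithrombin, -0.97), Serpina6 (corticosteroid binding globulin, -0.70), Cpt1a (fatty acid import into mitochondria, -0.71) and Gldc (glycine cleavage, -0.57) fell too, the Gldc call being lost in 7 of the 17 fits that left out 1 embryo.

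All of these liver calls were lost against the second M+Z+ set alone, although the values kept their sign. Against those 4 embryos F5 was at -0.98 (adjusted p = 0.162), Trf at -0.57 (adjusted p = 0.299), Afp at -0.38 (adjusted p = 0.652) and Cpt1a at -0.65 (adjusted p = 0.129).

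Among the red cell genes, embryonic globins and adult beta globins moved in opposite directions. The embryonic globins Hba-x and Hbb-bh1 rose on the maternal allele, Hba-x from 113, 238 and 761 CPM to 382, 899 and 3399 CPM (1.82 ± 0.37, adjusted p = 0.00562) and Hbb-bh1 from 9.97, 42.1 and 147 CPM to 56.5, 104 and 586 CPM (1.77 ± 0.40, adjusted p = 0.0154). The groups overlapped for both, and the paternal allele rose by 1.72 and 1.89. The adult beta globins fell, by 0.71 for Hbb-b2 (16387 to 23677 CPM in M+Z+, 7537 to 18741 CPM in M-Z-) and by 0.53 for Hbb-b1. Each of these has another record in the tables (Hbb-bt and Hbb-bs) with identical maternal reads, so the 4 calls stand for 2 genes. The adult alpha globins Hba-a1 and Hba-a2, whose maternal reads are also identical, did not pass and had values above 0 (0.48 ± 0.18, adjusted p = 0.154), with 487.6 to 1321 CPM in M+Z+ and 739.7 to 2050.4 CPM in M-Z- embryos. The Hbb-b1 call was lost in 9 of 17 fits that left out 1 embryo (adjusted p up to 0.0819 over the 17). Of the 7 tested red cell markers, 2 rose and 2 fell (0.72% and 0.54% of all tested genes did). Counting the identical alpha globins once, 3 had values above 0 and 3 below (median 0.024). With the second M+Z+ set alone the changes were 1.41 for Hba-x (adjusted p = 0.466), 1.15 for Hbb-bh1 (adjusted p = 0.642), -0.56 for Hbb-b2 (adjusted p = 0.426) and -0.37 for Hbb-b1 (adjusted p = 0.661).

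The alpha and beta globin genes together held 4.95% to 11.0% of all allele reads in M-Z- and 9.38% to 14.2% in M+Z+ embryos, and under 1% of the reads of the adult beta globins were paternal. The globin records with identical reads each entered these sums and the allele read totals, so their reads count repeatedly. With each set of identical reads counted once the globin shares would be lower, and they were not computed. The maternal share was taken over the allele reads of all autosomal genes outside chromosome 17. It was 52.8% ± 1.23 (SD, n = 7) in M-Z- and 54.8% ± 0.874 (SD, n = 10) in M+Z+ embryos, lower by 2.04 percentage points within tables (exact two-sided permutation test, p = 0.00068). These shares also count the identical globin reads repeatedly, and the size of the difference with each counted once was not computed. Without the globin genes it was 48.3% ± 0.0875 and 48.2% ± 0.0714, a difference of 0.0722 points (exact two-sided permutation test, p = 0.103). Against the second M+Z+ set alone the pooled share was lower by 1.30 points (exact two-sided permutation test, p = 0.0714).

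Of 4 tested hypoxia genes, 2 rose on the maternal allele (0.72% of all tested genes did) and all 4 had values above 0 (median 0.69, beside 0.036 over all tested genes). Without male M-Z- replicate 2, none of the 4 was called, 3 had values above 0 and the median was 0.30. Egln3, the oxygen sensing prolyl hydroxylase, rose by 0.99 ± 0.27 and Pdk1, a kinase that inhibits pyruvate dehydrogenase, by 0.52 ± 0.14. Pkm (pyruvate kinase, 0.63), Slc16a3 (lactate export, 1.12), Stc2 (1.08) and Trib3 (1.35), named after their values were seen, rose as well.

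In these genes the male M-Z- replicate 2 stood above all other embryos. It had 57.4 CPM of maternal Egln3, against 9.61 to 14.5 CPM in the other 6 M-Z- and 6.30 to 13.8 CPM in the M+Z+ embryos, and 192 CPM of Pdk1, against at most 89.7 CPM elsewhere. Without it Egln3 was at 0.49 (adjusted p = 0.177) and Pdk1 at 0.29 (adjusted p = 0.0347), neither of them called, Pkm was at 0.48 (adjusted p = 0.00265), under the required size, and 56 genes were called in all, of which 18 were list members. Slc16a3 at 0.73 (adjusted p = 0.0153), Stc2 at 0.63 (adjusted p = 0.0206) and Trib3 at 1.12 (adjusted p = 0.0371) stayed called without it. Against the second M+Z+ set none of these 6 genes was called (adjusted p = 0.438 to 0.642), with values of 0.98 for Egln3, 0.48 for Pdk1, 0.33 for Pkm, 0.94 for Slc16a3, 0.91 for Stc2 and 1.29 for Trib3. Egln3 (1.002, adjusted p = 0.0608) and Pdk1 (0.53, adjusted p = 0.0581) were not called against the first set either. The Egln3 call was lost in 12 and the Pdk1 call in 8 of the 17 fits that left out 1 embryo. Hba-x stayed called without it, at 1.30 (adjusted p = 0.0119), and Hbb-bh1 did not (1.21, adjusted p = 0.0506). The Hbb-bh1 call was also lost without female M-Z- replicate 3 (1.68, adjusted p = 0.0561).

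**Figure D4:**
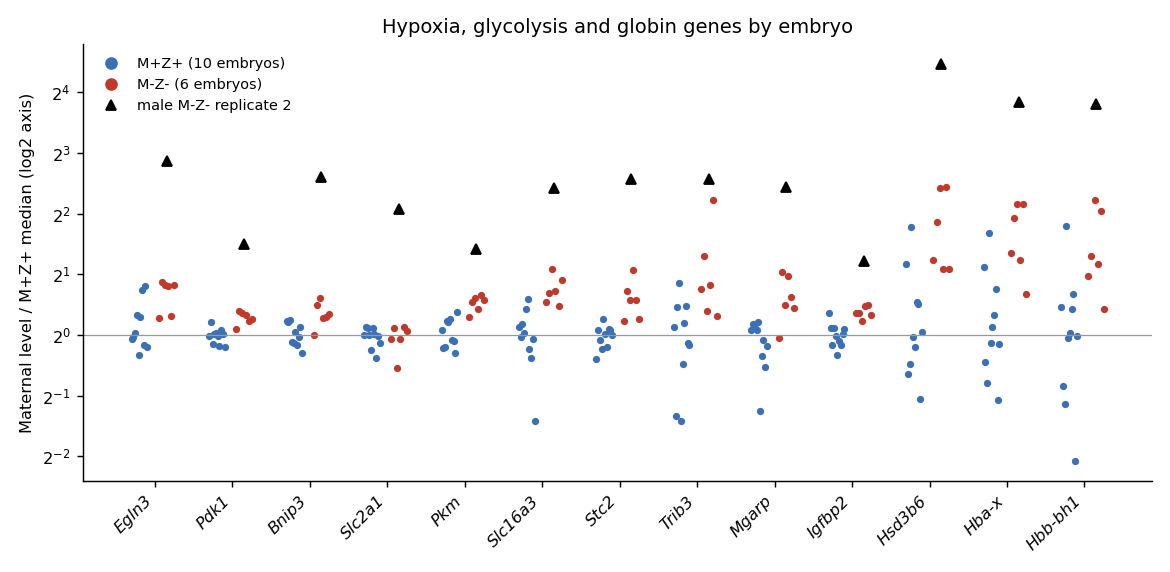
Maternal level of 13 genes of hypoxia, glycolysis, steroid metabolism and embryonic globin, chosen after their values were seen, in each embryo, divided by the median of the 10 M+Z+ embryos (log2 axis), with M+Z+ in blue, 6 M-Z- embryos in red and male M-Z- replicate 2 as a black triangle. The triangle is the highest point for every gene, at 7.27 times the M+Z+ median for Egln3 and 14.3 times for Hba-x.

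Further genes rose on both alleles, without overlap of the groups on the maternal allele. They include Gdf2 (BMP9), a ligand made by the liver that acts on vessels, which the rule for the largest gains named, and Hspb7, a small heat shock protein of the heart, named after its values were seen. Gdf2 went from 10.6, 13.1 and 17.8 CPM to 20.4, 24.3 and 31.7 CPM (0.89 ± 0.13, adjusted p = 3.91e-05), with 0.54 on the paternal allele (adjusted p = 0.0437). It was one of 9 non-list calls that held against the second M+Z+ set alone (0.89, adjusted p = 0.0185). Hspb7 went from 19.1, 28.9 and 39.8 CPM to 42.8, 51.1 and 61.4 CPM (0.77 ± 0.12, adjusted p = 0.000175). Hspb7 was at 0.54 (adjusted p = 0.124) against the second set. On the paternal allele the groups overlapped for both Gdf2 and Hspb7. Gata6, a transcription factor gene of heart and endoderm on chromosome 18, also named after its values were seen, rose by 0.60 ± 0.13, and its call was lost without female M-Z- replicate 2 (0.52, adjusted p = 0.0523) and against the second set (0.53, adjusted p = 0.462). None of the 4 tested muscle markers was called on the maternal allele (Myh7 0.31, Myh6 0.54, Tnnt2 0.19, Actc1 0.027). All 4 had values above 0 (median 0.25, beside 0.036 over all tested genes), and 1 was called higher on the paternal allele, where 1.06% of all tested genes were called. The 4 neural markers were not called either, and no gene of the placenta and decidua list had enough allele reads to be tested. What part cell composition has in the liver and red cell values was not tested.

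Some called changes outside the list were uneven among the embryos of a group. Zscan22, a zinc finger gene on chromosome 7, had 3.42 to 9.96 maternal CPM in M+Z+ embryos, no maternal read in 6 of 7 M-Z- embryos and 5.69 CPM in the seventh (-3.16 ± 0.57, adjusted p = 0.00149), while its paternal reads rose by 0.94 (adjusted p = 0.0159) and its total stayed at 0.023 (adjusted p = 0.898). Paternal Zscan22 did not overlap in females (15.5 to 17.5 CPM in M-Z-, 3.16 to 9.29 CPM in M+Z+) and overlapped in males (5.25 to 8.54 CPM and 4.43 to 7.57 CPM). Without the seventh, male M-Z- replicate 1, no M-Z- embryo had a maternal read of Zscan22 and the fitted value was -7.29 (adjusted p = 1.24e-07), which then depends on the prior count and is no bound. In M-Z+ embryos 4 of 6 also had no maternal read. Cbx3, Mrpl33 and Set had called maternal changes with total expression at -0.12, 0.018 and 0.047, and all 3 differ between the M+Z+ sets. Their calls were lost in 9, 12 and 7 of the 17 fits that left out 1 embryo. Against the second set Cbx3 went from -3.32 to -1.13 (adjusted p = 0.90), Mrpl33 from -1.09 to 0.090 (adjusted p = 0.988) and Set from 0.75 to 0.28 (adjusted p = 0.792). A block of 7 genes on distal chromosome 6 (148719206 to 149511848) had 0.696% to 1.60% maternal reads in 5 M+Z+ and 2 M-Z- embryos and 45.6% to 49.6% in the other 10. None of the 7 was called.

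The females alone called 31 genes (0.507%) and the males alone 28 (0.458%), of which 16 list members in each. All 77 called genes had the same sign in both tables. The test of a sex by genotype difference in edgeR called 0% of the genes (0 of 6110, with 291 at an unadjusted p below 0.05 and a lowest adjusted p of 0.256), and DESeq2 called 1. Ndn had 5.26 in females and 7.21 in males, and Magel2 4.73 and 7.25, without passing that test. No overlap between groups in either table was found for 51 genes (0.835%), of which 29 were called.

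The calls were recounted against each M+Z+ set alone. Against the first set (female replicates 1, 2 and the first column headed 3, male replicates 1 to 3), 17 of 18 list calls and 56 of 59 others were kept. Against the second set (4 embryos, 1 of them male), 16 of 18 list calls and 9 of 59 others were kept. The 9 were the 3 non-coding RNAs of the Snrpn domain, Gm30189, Ltv1, Fuca2, Hivep2, Gdf2 and Zscan22. The sign was kept in 76 of 77 genes, Mrpl33 being the exception. The median size of the log2 fold change went from 5.37 to 4.88 in the list and from 0.83 to 0.60 outside it. The share of calls kept depends on these sizes and on the number of embryos, and its difference between list and other genes was not tested.

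**Figure D5:**
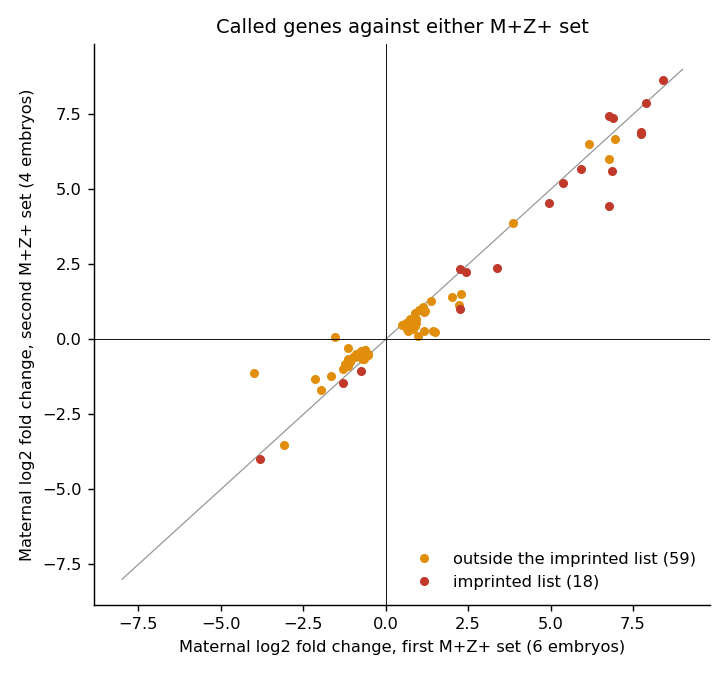
Maternal log2 fold change of the 77 called genes against the first M+Z+ set (6 embryos, horizontal axis) and the second M+Z+ set (4 embryos, vertical axis), with list genes in red, other genes in orange and equal values on the grey line. List genes run along the line, and most other genes lie between it and 0 of the vertical axis.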

How the data were processed

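RNA was sequenced from whole E13.5 embryos, 1 library per embryo. Per the labels and the study's methods, the authors aligned reads to mm9 with STAR, split them by 129/DBA variants with SNPsplit and counted them with featureCounts. The deposited allelic tables hold raw counts of maternal and paternal reads per gene, not normalised, and the deposited gene tables raw counts of all reads. Whether the allelic counts used strand was not given in the sources used here, and overlapping genes may share reads. All 69 value columns were used. Among the female M+Z+ columns, 4 carry repeated header names, so their maternal and paternal columns were joined by position and they have no replicate number.

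Maternal counts were tested in edgeR 4.0.16 (R 4.3.3, glmQLFit and glmQLFTest) with the embryo's total allele reads as library size and sex (the table) as covariate. SE is the log2 fold change over the root of the F statistic. The same genes were tested on paternal counts, for the allele by genotype interaction (with an effect for each embryo), in M-Z+ embryos, and on gene counts with TMM scaling. The maternal share was compared by an exact permutation within tables. DESeq2 1.42.0 was an alternative. The scripts were tested on simulated data. No gene-free rows entered the totals.

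The imprinted genes and other lists were chosen with earlier results of these data known. Named were any tested list gene and, outside the imprinted list, the 5 largest gains and 5 largest losses among called genes without overlap in either table. Any other named gene should be taken as picked with its values known, also where the text does not say so beside it. Embryos of a group came from separate libraries, and whether they shared litters was not given. The split of M+Z+ embryos into 6 and 4 by header order was made after seeing the data, and the labels do not say what the order stands for. The study's figure legends also divide the M+Z+ embryos, into 6 with primed names and 4 without. The names without a prime are numbered on with the mutant embryos. No label ties these names to the columns.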

Additional observations from a re-analysis of the deposited data

Results flagged for a closer look

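In a group of 4 to 10 embryos, a value was marked when its gap to the nearest other embryo exceeded Dixon's 95% limit for the group's range. Of 138 groups of maternal values examined, 22 held such an embryo, and in each of the 22 it had the highest value. Chance marks about 1 in 20 groups only where values are normally distributed. The limit was applied to CPM without a log scale, and some groups had few reads. Some of the genes were also named with their values known. The 22 can therefore not be compared with 1 in 20, and the marks are a description. The named genes overlap in part, so the groups are not independent.

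Male M-Z- replicate 2 accounts for 12 of the 22. It had the highest maternal CPM of the 7 M-Z- embryos for Egln3 (57.4), Pdk1 (192), Pkm (1468), Slc16a3 (67.1), Stc2 (69.1), Igfbp2 (79.6), Mgarp (40.0), Hsd3b6 (475), Hba-x (3399) and Hbb-bh1 (586). The next embryo had 14.5 CPM for Egln3, 116 CPM for Hsd3b6 and 1066 CPM for Hba-x. It was also highest for Snrpn (329.8) and Snurf (299), where the next had 264 and 241 CPM. Why this embryo differs was not tested.

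The other 3 marks among the M-Z- embryos were maternal Dlk1 in male replicate 3 (92.9 CPM), Gata6 in female replicate 2 (41.8 CPM) and Zscan22 in male replicate 1 (5.69 CPM), the only M-Z- embryo with maternal reads of that gene.

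Among the M+Z+ embryos, male replicate 4 had the highest maternal Meg3 (2046 CPM) and Mybpc3 (24.7 CPM). Of the 4 female M+Z+ columns with repeated names, 1 had the highest Magel2 (2.76 CPM), Impact (31.1 CPM) and A330076H08Rik (1.73 CPM), another the highest Snhg14 (5.64 CPM) and a further one the highest Hbb-bh1 (147 CPM). Even so, each of the 4 imprinted-domain values lay below all M-Z- embryos.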

How the results depend on the processing

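The count of 77 genes called on the maternal allele moved most with the M+Z+ embryos used: 191 against the first set and 25 against the second, where list calls were 17 and 16. It was 141 with no filter on low counts, 152 with no minimum fold change, 38 with a minimum of 1 on the log2 scale and 161 with chromosome 17 included. TMM scaling (73), total maternal reads (95) and DESeq2 (85) kept it within 1.5 times. Leaving out each embryo in turn gave 56 to 124 calls, 20 to 89 in males, 39 to 118 on the paternal allele, 11 to 37 in M-Z+ embryos, 56 to 158 in total expression and 17 to 18 in the imprinted list. The count was lowest without female M-Z- replicate 3, male M+Z+ replicate 3 or male M-Z- replicate 2 (56 each) and highest without male M-Z- replicate 3. Paternal calls were 146 and 7 against the first and the second set, and calls in total expression 23 against the second. DESeq2 called 1 gene for the sex by genotype interaction. Maternal Mrpl33 turned to 0.0902 against the second set. The maternal share turned to 0.0722 points without globin genes, and was -1.30 against the second set; leaving out single embryos gave -2.31 to -1.78. Over the alternatives for the 62 named genes that were called, 1599 values kept direction and call and 184 lost the call. These counts leave out the alternatives on the minimum fold change, under which Ube3a (-0.34) passes where none is set. Of 174 such values for the 6 named genes that were not called, 18 changed sign, all in Cdh15 (-0.031 to 0.092), Gnas (-0.084 to 0.054), Meg3 (-0.13 to 0.17) and Rian (-0.092 to 0.043). DESeq2 gave no adjusted p for 7 named genes. Unless stated above, the cause was not tested.

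Embryos with the same number in both genotypes of a table gave 5 pairs. The fit with a replicate block called 147 genes, beside 112 for the same 10 embryos unpaired. The correlations of the pairs' deviations were 0.0246 to 0.228, so the numbers were not taken to pair the embryos, although all 10 correlated best with their own number, a hint from the data and not the design. Genes near the limit of 20 allele reads had few maternal reads, so a change in them may not be detectable at this depth.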
